A study of Bos taurus with 72 samples.

Results

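MX1, MX2, ISG15, OAS2, OAS1Y, RSAD2 and IFI6 are antiviral effector genes that interferons switch on. They were taken as the 7 bovine Ensembl identifiers ENSBTAG00000030913 (MX1), ENSBTAG00000008471 (MX2), ENSBTAG00000014707 (ISG15), ENSBTAG00000014628 (OAS2), ENSBTAG00000039861 (OAS1Y), ENSBTAG00000016061 (RSAD2) and ENSBTAG00000007554 (IFI6), out of the 24616 genes of the count table. The table gives identifiers without symbols, so the names rest on that list. All 7 genes passed the filter on low counts, as did 12655 genes in all.

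Cells that sense a virus release interferons, which bind receptors on the same and on other cells and raise the transcription of many genes. MX1 and MX2 encode dynamin-like GTPases that block the replication of several viruses. ISG15 is a small ubiquitin-like protein that is joined to other proteins or released. OAS2 and OAS1Y are oligoadenylate synthetases: on double-stranded RNA they make the second messenger that activates RNase L, which cuts RNA. RSAD2, also called viperin, is a radical SAM enzyme that makes a chain-terminating nucleotide. IFI6 is a small membrane protein, known in human cells to limit flavivirus replication. Together their transcripts are widely used as a blood readout of interferon exposure.

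The libraries came from whole blood of 24 male beef cattle, each sampled at the entry, pulled and close-out stages, which gave 24 libraries per stage and 72 in all. Blood was kept in PAXgene tubes, RNA had an integrity value above 7.5, and poly-A mRNA libraries were made with a TruSeq kit. Bovine respiratory disease is named in the series title. The labels give no treatment, genotype, breed, age, diagnosis, pathogen or number of days between stages, and animals of the same age that were never pulled were not analysed here, so stage, age and time cannot be told apart.

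Libraries held from 8.24 to 29.1 megareads counted on genes, with a median of 17.2 megareads. Nearly the same counts were found in the entry library of animal 11 and in the library labelled as the pulled stage of animal 9, with a chi-square of 1.46 per degree of freedom, where the next lowest of 2556 library pairs reached 29.1. Over 100 genes whose level repeated within animals, the correlation of that library was -0.0595 with the others of animal 9 and 0.938 with those of animal 11. For the library labelled pulled of animal 12 it was 0.153 with its own animal and at most at 0.301 with another, against at least 0.875 for the own animal in the other 22 animals. Each animal was represented here by the mean of its entry and close-out libraries, so the 0.938 includes the near copy itself. Whether those libraries of animal 12 match each other was not tested, so which of its libraries is at odds was not settled. The libraries labelled pulled of animals 9 and 12 are treated below as going against their labels. The stage comparisons over all animals, the tallies of animals and the correlations at pulled are also given without them. The entry libraries also stood apart by the number in the library title: 6 animals had numbers above 100 and 18 animals had numbers up to 98. This division was noticed in earlier results of these data, and the study names no such groups. The labels give no batch or date. The scaling factor between libraries (TMM) at entry averaged 0.806 ± 0.0966 in the set of 6 animals (SD, n = 6) and 1.14 ± 0.0876 in the set of 18 animals (SD, n = 18).

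All 7 transcripts fell at close-out. They were lower than at pulled by 5.12-fold for MX1 up to 20.1-fold for ISG15, and lower than at entry by 3.15-fold for MX1 up to 15.7-fold for RSAD2. At pulled, MX1, ISG15, OAS2, OAS1Y and IFI6 were between 1.63-fold and 2.38-fold higher than at entry, while MX2 and RSAD2 did not pass the test. In counts, 5 of 7 genes were higher at pulled than at entry, where 20.2% of all genes tested were higher. Lower at close-out than at pulled were 7 of 7 genes, against 13.9% of all genes, and lower at close-out than at entry were again 7 of 7, against 12.0% of all genes. The median log2 fold change of the 7 genes was 0.85 for pulled against entry, -3.68 for close-out against pulled and -3.08 for close-out against entry. Over all genes tested these medians were -0.03, -0.01 and -0.02. In bulk blood, fewer cells of a type and less RNA per cell cannot be told apart.

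**Figure D1:**
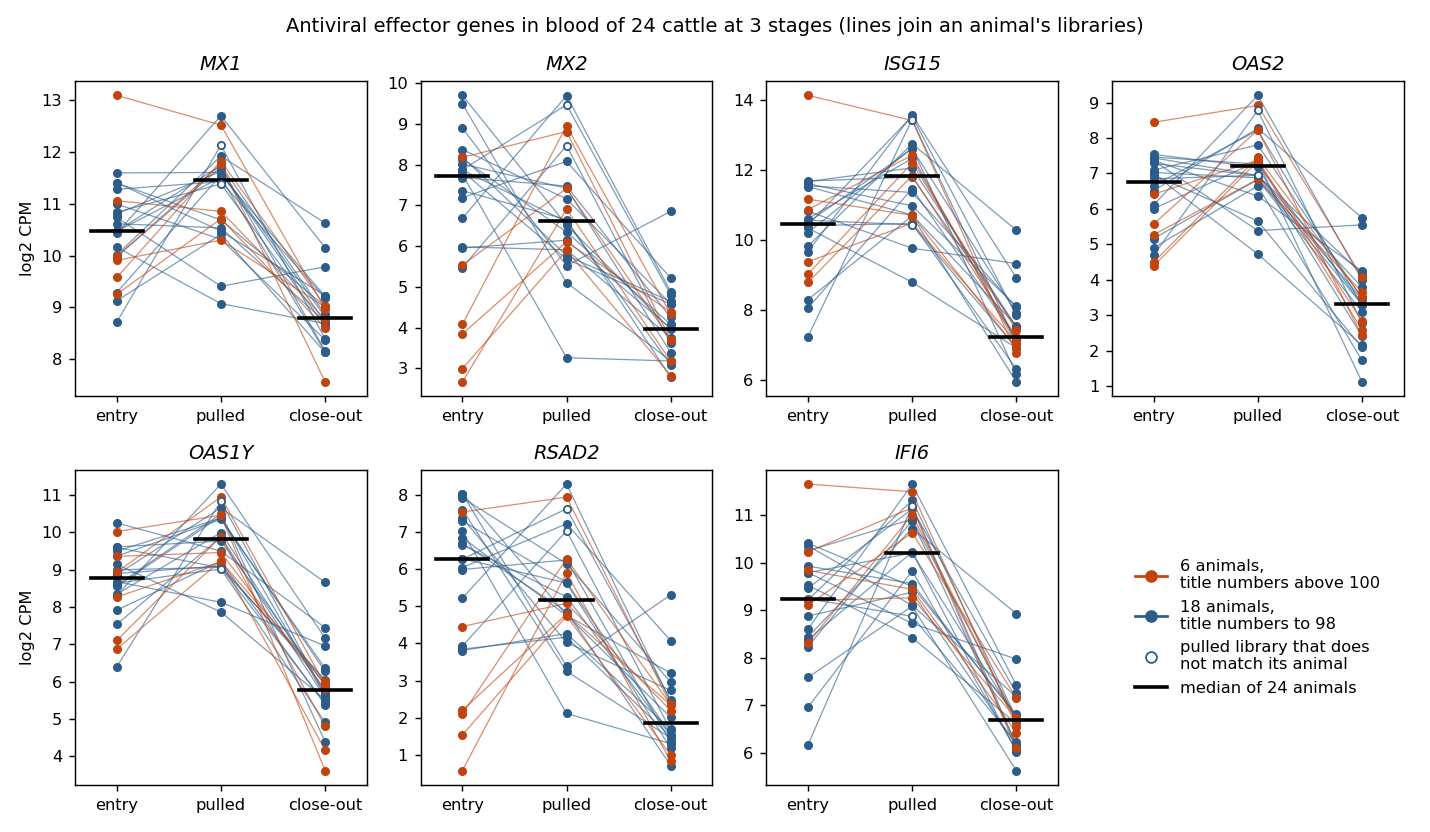
Each panel shows 1 gene, with log2 CPM (counts per megaread of the library) on the y axis and the stage on the x axis. Points are libraries, thin lines join the 3 libraries of an animal, and colours give the title-number set. Open points mark the libraries labelled pulled that are treated as going against their labels (animals 9 and 12). Bars are medians of 24 animals. The close-out medians lie lowest in every panel, for example 148 CPM for ISG15 at close-out against 3602 CPM at pulled, and in the MX2 and RSAD2 panels most animals of the set of 6 start low at entry.

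MX1, the GTPase known in mice and humans for restricting influenza virus, ran from 421 to 8701 CPM at entry (median 1418), from 538 to 6635 CPM at pulled (median 2828) and from 189 to 1579 CPM at close-out (median 445). CPM throughout were computed from TMM-scaled totals. All 24 pulled libraries lay within the range of the entry libraries, and 6 of the 24 close-out libraries lay within the range of the pulled libraries. The highest entry value was that of animal 5, while the set of 18 animals reached 3089 CPM at entry. Taken within each title-number set, 11 of 18 and 6 of 6 pulled libraries lay within the entry range. MX1 was higher at pulled than at entry by 0.70 on the log2 scale (edgeR adjusted p = 0.0139, SE 0.23), with 16 of 24 animals higher. At close-out it was lower than at pulled by a log2 fold change of -2.36 (edgeR adjusted p = 1.30e-10, SE 0.24), with 23 of 24 animals lower. Against entry the log2 fold change at close-out was -1.66 (edgeR adjusted p = 7.67e-07, SE 0.23), again with 23 of 24 animals lower. Of the 7 genes MX1 had the smallest fall in both comparisons with close-out.

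MX2, the second GTPase of the family, showed another course. Its levels ran from 6.25 to 831 CPM at entry (median 211), from 9.49 to 827 CPM at pulled (median 98.7) and from 6.77 to 115 CPM at close-out (median 15.6). Every pulled library and every close-out library lay within the range of the entry libraries. Taken within each title-number set, 6 of 6 close-out libraries lay within the entry range in the set of 6 animals. In the set of 18 animals, 1 of 18 did. The log2 fold change for pulled against entry was -0.11 (edgeR adjusted p = 0.848, SE 0.44), and 11 of 24 animals were higher. At close-out MX2 was lower than at pulled by a log2 fold change of -3.16 (edgeR adjusted p = 1.76e-07, SE 0.43) and lower than at entry by -3.27 (edgeR adjusted p = 3.20e-07, SE 0.44). The fall from pulled was seen in 23 of 24 animals and the fall from entry in 21 of 24. MX1 and MX2 are neighbours with 0 genes between them in the RefSeq table of assembly ARS-UCD2.0, which is another build than that of the counts.

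ISG15, the ubiquitin-like modifier, ran from 150 to 17964 CPM at entry (median 1407), from 442 to 12216 CPM at pulled (median 3602) and from 61.0 to 1239 CPM at close-out (median 148). All 24 pulled libraries lay within the entry range, which a single animal, animal 5 with 17964 CPM, extended upwards. At close-out 3 libraries reached into the range of the pulled libraries. ISG15 was higher at pulled than at entry by 1.25 (log2, edgeR adjusted p = 0.00466, SE 0.35), in 16 of 24 animals. Its fall at close-out was the largest of the 7 genes against pulled, with a log2 fold change of -4.33 (edgeR adjusted p = 1.71e-12, SE 0.38), and all 24 animals were lower. Relative to entry it was -3.08 (edgeR adjusted p = 1.60e-08, SE 0.36), with 23 of 24 animals lower.

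OAS2, the larger of the 2 synthetases described here, ran from 20.9 to 348 CPM at entry (median 107.99), from 26.3 to 589 CPM at pulled (median 149) and from 2.06 to 53.7 CPM at close-out (median 9.80). Close-out stood apart: 2 of its 24 libraries lay within the range of the pulled libraries, and 2 within the range of the entry libraries. OAS2 was higher at pulled than at entry by 0.85 (log2, edgeR adjusted p = 0.0211, SE 0.30), in 15 of 24 animals. That call rested in part on animal 12: without it the log2 fold change was 0.70 and the edgeR adjusted p was 0.0518. At close-out OAS2 was lower than at pulled by a log2 fold change of -4.08 (edgeR adjusted p = 1.18e-13, SE 0.32), with 23 of 24 animals lower. Relative to entry the value was -3.24 (edgeR adjusted p = 1.42e-10, SE 0.31), with all 24 animals lower.

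OAS1Y, a copy of the OAS1 gene in cattle, ran from 84.7 to 1220 CPM at entry (median 439), from 233 to 2509 CPM at pulled (median 906) and from 12.2 to 405 CPM at close-out (median 54.4). At pulled, 15 of 24 libraries lay within the entry range. At close-out, 1 of 24 libraries lay within the pulled range. OAS1Y was higher at pulled than at entry by 1.12 (log2, edgeR adjusted p = 0.000833, SE 0.26), in 20 of 24 animals. The log2 fold change at close-out was -4.00 against pulled (edgeR adjusted p = 6.05e-15, SE 0.28) and -2.88 against entry (edgeR adjusted p = 1.02e-10, SE 0.27). All 24 animals were lower in both comparisons with close-out. OAS2 and OAS1Y overlap in the RefSeq table of assembly ARS-UCD2.0. The strand setting of the counting is not given in the sources used here, so reads of the overlap cannot be told apart, and reads shared with other OAS1 copies leave the OAS1Y level uncertain.

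RSAD2, the viperin gene, ran from 1.38 to 261 CPM at entry (median 77.2), from 4.22 to 312 CPM at pulled (median 35.8) and from 1.53 to 39.4 CPM at close-out (median 3.51). The lowest value, in the entry library of animal 3, rested on 17 reads, so low RSAD2 values carry more counting error than those of the other genes. At pulled, 23 of 24 libraries lay within the entry range, and at close-out all 24 did. Taken within each title-number set, the close-out libraries inside the entry range were 6 of 6 in the set of 6 animals. They were 2 of 18 in the set of 18 animals. The log2 fold change for pulled against entry was -0.30 (edgeR adjusted p = 0.621, SE 0.47), with 13 of 24 animals higher. RSAD2 was lower at close-out than at pulled by a log2 fold change of -3.68 (edgeR adjusted p = 4.70e-08, SE 0.47), in 23 of 24 animals. Against entry its log2 fold change at close-out, -3.97 (edgeR adjusted p = 4.52e-08, SE 0.49), was the lowest of all 12655 genes, with 21 of 24 animals lower.

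IFI6, the small membrane protein gene, ran from 72.1 to 3219 CPM at entry (median 601), from 343 to 3206 CPM at pulled (median 1186) and from 49.4 to 488 CPM at close-out (median 103). The pulled libraries all lay within the entry range, and 1 close-out library lay within the pulled range. Animal 5 had the highest entry value, while the set of 18 animals reached 1358 CPM at entry. Taken within each title-number set, 11 of 18 and 6 of 6 pulled libraries lay within the entry range. IFI6 was higher at pulled than at entry by 0.96 (log2, edgeR adjusted p = 0.00500, SE 0.27), in 16 of 24 animals. At close-out it was lower than at pulled by a log2 fold change of -3.55 (edgeR adjusted p = 1.99e-13, SE 0.29), in all 24 animals. Relative to entry it was -2.58 (edgeR adjusted p = 3.01e-09, SE 0.28), with 22 of 24 animals lower.

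Taking the genes by the size of their fall among all 12655 genes, with rank 1 the lowest log2 fold change, close-out against pulled placed ISG15 at rank 5, OAS2 at 6, OAS1Y at 8, RSAD2 at 13, IFI6 at 14, MX2 at 17 and MX1 at 37. Close-out against entry placed RSAD2 at rank 1, MX2 at 5, OAS2 at 6, ISG15 at 8, OAS1Y at 10, IFI6 at 15 and MX1 at 53. Both comparisons use the same close-out libraries. Tested against a change of 1.5-fold, 7 of 7 genes were lower at close-out than at pulled (1.5% of all genes), 7 of 7 were lower at close-out than at entry (0.569% of all genes) and 0 of 7 were higher at pulled than at entry (0.411% of all genes). In that last test 3 of 7 genes, OAS1Y, ISG15 and IFI6, had an unadjusted p under 0.05, as had 943 of all 12655 genes in either direction. The lowest adjusted p of the 7 genes from edgeR was 0.234 for OAS1Y, and no other tool was run against 1.5-fold. With the libraries labelled pulled of animals 9 and 12 left out, 5 of 7 genes were higher at pulled than at entry (20.7% of all genes). The same fit called 7 of 7 lower at close-out than at pulled (13.8% of all genes) and 7 of 7 lower at close-out than at entry (11.9% of all genes).

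**Figure D2:**
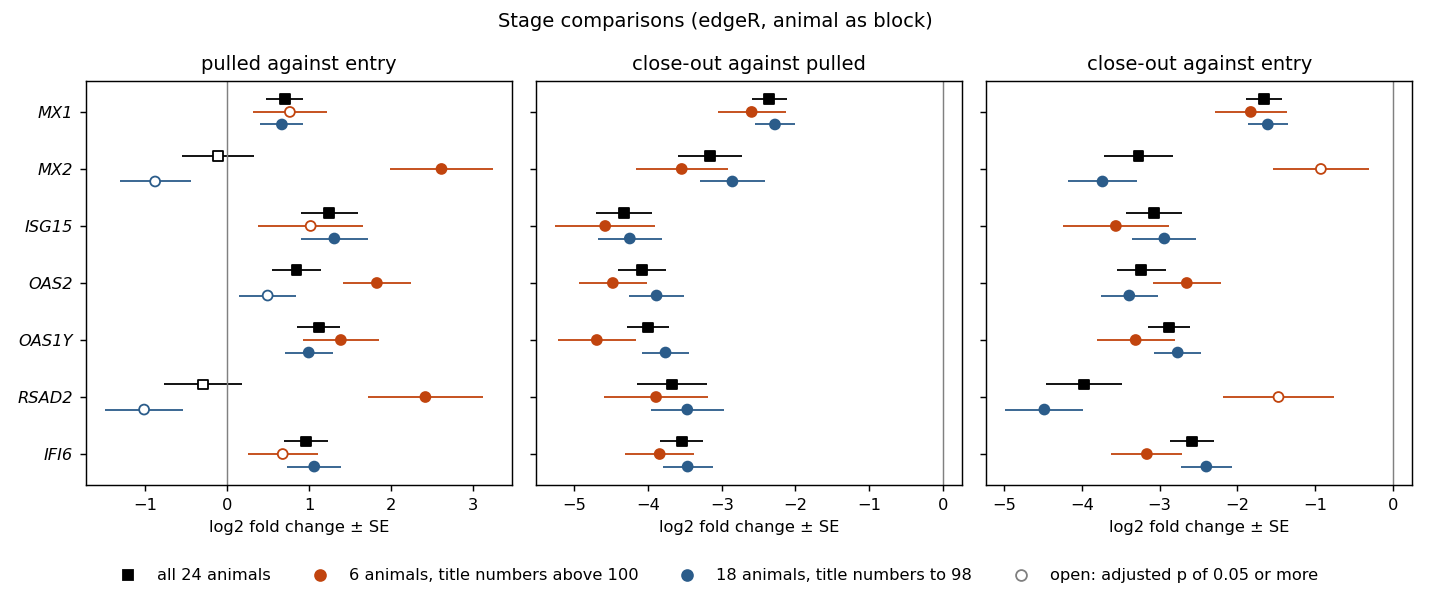
Log2 fold changes with standard errors (x axis) for each gene (rows) in the 3 stage comparisons, fitted over all 24 animals (squares) and within each title-number set (circles), where open symbols have an adjusted p of 0.05 or more. In the panel for pulled against entry, MX2 lies at 2.62 in the set of 6 animals and at -0.88 in the set of 18 animals, while in the panel for close-out against pulled all symbols lie below 0.

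MX2 and RSAD2 differed between the title-number sets at entry. In the set of 6 animals, MX2 at entry ran from 6.25 to 289 CPM (median 15.5), against 44.3 to 831 CPM (median 231) in the set of 18 animals. RSAD2 at entry ran from 1.38 to 185 CPM (median 4.33) in the set of 6 animals, against 13.9 to 261 CPM (median 102) in the set of 18 animals. The highest value of the set of 6 was that of animal 5 for both genes. At close-out the sets had like medians, with 12.9 CPM of MX2 in the set of 6 and 16.2 CPM in the set of 18, and 4.71 CPM of RSAD2 in the set of 6 and 3.08 CPM in the set of 18.

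Within the set of 6 animals, MX2, OAS2, OAS1Y and RSAD2 were higher at pulled than at entry, 4 of 7 genes where 21.7% of all genes were higher. Log2 fold changes were 2.62 for MX2 (edgeR adjusted p = 0.00593), 2.42 for RSAD2 (edgeR adjusted p = 0.0151), 1.83 for OAS2 (edgeR adjusted p = 0.00485) and 1.39 for OAS1Y (edgeR adjusted p = 0.0295), and each was higher in 6 of 6 animals. Not past the test were ISG15 at 1.02, MX1 at 0.77 and IFI6 at 0.68, each higher in 4 of 6 animals. Within the set of 18 animals, ISG15 (1.31), IFI6 (1.06), OAS1Y (1.00) and MX1 (0.67) were higher at pulled than at entry, again 4 of 7 genes, but 33.9% of all genes were higher there. OAS2 at 0.49, MX2 at -0.88 (edgeR adjusted p = 0.0688) and RSAD2 at -1.01 (edgeR adjusted p = 0.0563) did not pass in that set. Animals 9 and 12 stayed in this fit with the samples that go against their labels. It was not repeated without those samples, so how far they moved these values was not tested. MX2 was higher at pulled in 5 of these 18 animals, animals 9 and 12 among them, and lower in 13.

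The difference between the sets was itself tested. The sets were noticed in earlier results of these data, in which their entry libraries stood apart. Entry is the baseline of pulled against entry and of close-out against entry. The test therefore describes that division and is no independent evidence for it. The log2 fold change of pulled against entry was larger in the set of 6 than in the set of 18 by 3.52 for MX2 (edgeR adjusted p = 0.000423, SE 0.86) and by 3.44 for RSAD2 (edgeR adjusted p = 0.00155, SE 0.95). For OAS2 the difference was 1.36 (edgeR adjusted p = 0.0622, SE 0.65), and for the other 4 genes it ran from -0.36 for IFI6 to 0.41 for OAS1Y and did not pass. These 2 of 7 genes stand against 36.0% of all genes higher in the same test, so their number is near the background. For close-out against entry the difference was 2.83 for MX2 (edgeR adjusted p = 0.00429, SE 0.87) and 3.02 for RSAD2 (edgeR adjusted p = 0.00653, SE 0.97), 2 of 7 genes against 34.9% of all genes. In limma-voom the RSAD2 value for close-out against entry was 2.28 and did not pass (adjusted p = 0.0795). In the comparison of close-out with pulled, edgeR called 0 of 7 genes and 0.00% of all genes as different between the sets, with 261 genes at an unadjusted p under 0.05, and limma-voom called 0 genes, with 247. Both sets had 7 of 7 genes lower at close-out than at pulled, where 1.38% of all genes were lower in the set of 6 and 14.3% in the set of 18. Lower at close-out than at entry were 5 of 7 genes in the set of 6 (19.5% of all genes) and 7 of 7 in the set of 18 (34.2% of all genes). The genes that did not pass in the set of 6 were MX2 at -0.93 and RSAD2 at -1.47. In the test of the set difference for pulled against entry, RLE scaling called 2 of 7 genes higher in the set of 6 (4352 of 12655 genes). Library totals only called 3 of 7 genes higher there (6650 of 12655 genes). How much of the set difference goes with the lower TMM factors of the set of 6 at entry was not tested.

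A ratio of genes within a library does not depend on how libraries are scaled. The mean log2 CPM of MX1, ISG15, OAS2, OAS1Y and IFI6 was therefore subtracted from that of MX2 and of RSAD2 in each library, a division of the genes that was made after their values were seen and so carries no test. Medians are given in the order entry, pulled and close-out. For MX2 they were -4.58, -2.83 and -2.37 in the set of 6 animals, and -1.40, -3.43 and -2.44 in the set of 18 animals. For RSAD2 they were -6.13, -4.46 and -4.05 in the set of 6 animals, and -2.77, -4.92 and -4.42 in the set of 18 animals. At entry the sets did not overlap in either gene: MX2 reached at most -3.29 in the set of 6 and was at least -2.25 in the set of 18, and RSAD2 reached at most -3.93 in the set of 6 and was at least -3.72 in the set of 18. At pulled and at close-out the sets overlapped. How many other genes also separate the sets at entry was not counted, so the separation is not read as particular to MX2 and RSAD2. In the test of the set difference for pulled against entry, 4558 of 12655 genes were higher in the set of 6 and 4093 were lower. From entry to pulled the relative level of MX2, and likewise that of RSAD2, was higher in 6 of 6 animals of the set of 6 and lower in 16 of 18 animals of the set of 18 (15 of 16 for both genes without animals 9 and 12).

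**Figure D3:**
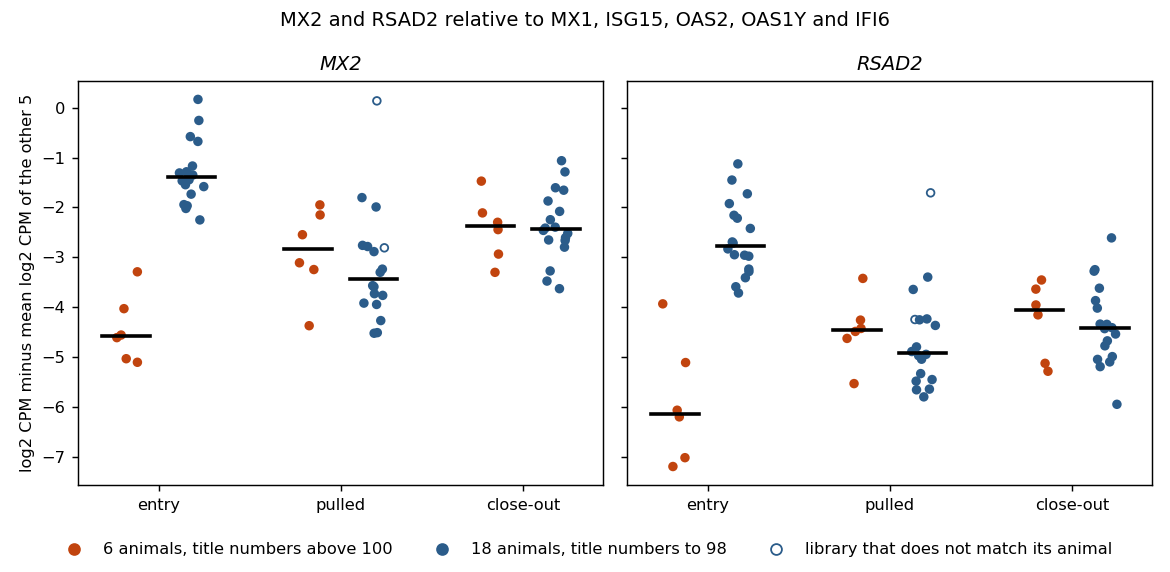
Points are libraries, the x axis gives the stage and the y axis the log2 CPM of MX2 (left) or RSAD2 (right) minus the mean log2 CPM of the other 5 genes, with the set of 6 animals left of the set of 18 animals and bars at the medians. At entry the MX2 medians are -4.58 in the set of 6 and -1.40 in the set of 18; the open point at 0.14 is from the library with animal 9 and pulled as its label.

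That library stood apart from the other pulled libraries in these ratios. Its relative MX2 level was 0.14, against at most -1.80 in the remaining pulled libraries of the set of 18 animals, and the entry library of animal 11, with nearly the same counts, had 0.17. It held 707 CPM of MX2, and animal 11 at entry held 721 CPM. With both libraries that go against their labels left out, the difference between the sets in pulled against entry was 3.87 for MX2 (edgeR adjusted p = 5.82e-05) and 3.80 for RSAD2 (edgeR adjusted p = 0.000320), and OAS2 passed at 1.5 (edgeR adjusted p = 0.0305).

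Animal by animal, all 7 genes were lower at close-out than at pulled in 23 of 24 animals. The exception was animal 16, in which MX1, MX2, OAS2 and RSAD2 were higher at close-out: MX2 was at 115 CPM at close-out and 45.8 CPM at pulled, and RSAD2 at 39.4 CPM at close-out and 10.4 CPM at pulled. All 7 genes were lower at close-out than at entry in 19 of 24 animals. The exceptions were animal 20 in MX1, ISG15 and IFI6, animal 12 in IFI6, and animals 2, 3 and 6 in MX2 and RSAD2. Pulled against entry was mixed, with all 7 genes higher in 8 animals, all 7 lower in 4 animals and both directions in the other 12. Leaving out animals 9 and 12, these numbers were 7, 4 and 11 of 22 animals, and all 7 genes were lower at close-out than at pulled in 21 of 22 animals. By gene, the animals higher at pulled than at entry were then 14 of 22 for MX1, 9 for MX2, 15 for ISG15, 13 for OAS2, 18 for OAS1Y, 11 for RSAD2 and 15 for IFI6. ISG15, OAS1Y and IFI6 were lower at close-out than at pulled in 22 of 22 of these animals, and MX1, MX2, OAS2 and RSAD2 in 21.

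The same animals held the extremes of several genes. At pulled, animal 19 was highest and animal 17 lowest in 7 of 7 genes: ISG15 was at 12216 CPM in animal 19 and 442 CPM in animal 17, and RSAD2 at 312 CPM in animal 19 and 4.22 CPM in animal 17. At entry, animal 5 was highest in 4 genes, animal 14 in 2 and animal 22 in 1, while animal 12 was lowest in 4 and animal 3 in 3. At close-out, animal 20 was highest in 5 genes and animal 16 in 2. The 7 genes together took from 0.102% to 2.14% of a library's counts at entry (median 0.507%), from 0.140% to 2.37% at pulled (median 0.835%) and from 0.0495% to 0.322% at close-out (median 0.0801%). The highest shares were those of animal 5 at entry, animal 19 at pulled and animal 20 at close-out. In animal 12 the library labelled pulled did not match the mean of the other libraries of that animal. It exceeded entry by 3.41 in MX1, 6.21 in ISG15, 4.09 in OAS2, 4.43 in OAS1Y and 5.02 in IFI6 (log2). These were the largest differences of the 24 animals in these genes.

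The spread between animals did not differ detectably between stages. The SD of log2 CPM across the 24 animals was widest for RSAD2 at entry, with 2.23, against 1.53 at pulled and 1.05 at close-out. For MX2 the SDs at the 3 stages, in time order, were 1.95, 1.5 and 0.91, and for OAS2 it was 1.12, 1.07 and 1.08 in the same order. In 21 permutation tests of the ratio of SDs (two-sided, 7 genes and 3 pairs of stages), 0 passed an adjusted p of 0.05, and 2 had an unadjusted p under 0.05: RSAD2 (p = 0.0270) and MX2 (p = 0.0317) for close-out against entry, both with an adjusted p of 0.333. Within the set of 18 animals the SDs of RSAD2 were 1.15 at close-out and 1.38 at entry, and those of MX2 were 0.97 at close-out and 1.14 at entry, with adjusted permutation p of 0.832 for both.

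An animal's level at 1 stage was not detectably related to its level at another. The entry libraries of the 2 sets stood apart, so correlations with entry used the set of 18 animals. Pearson's r between entry and pulled ran from -0.36 for OAS2 to -0.18 for MX1, below 0 in all 7 genes. Between entry and close-out r ran from 0.14 for MX2 to 0.36 for IFI6, and between pulled and close-out, over 24 animals, from 0.09 for RSAD2 to 0.19 for MX2. Of these 21 relations 0 passed, 0 had an unadjusted p under 0.05 for r and 1 for Spearman's rho, with a smallest adjusted permutation p of 0.580 for r and 0.392 for rho. The largest rho was that of IFI6 between entry and close-out, 0.556 (permutation p = 0.0186, adjusted p = 0.392). Leaving out the 2 animals farthest from the median at entry (animals 18 and 24) took r of RSAD2 between entry and pulled to -0.651 (permutation p = 0.00559, not adjusted), against -0.315 with all 18 animals. Without animals 9 and 12 the correlations between entry and pulled ran from -0.27 for MX2 to -0.05 for MX1.

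**Figure D4:**
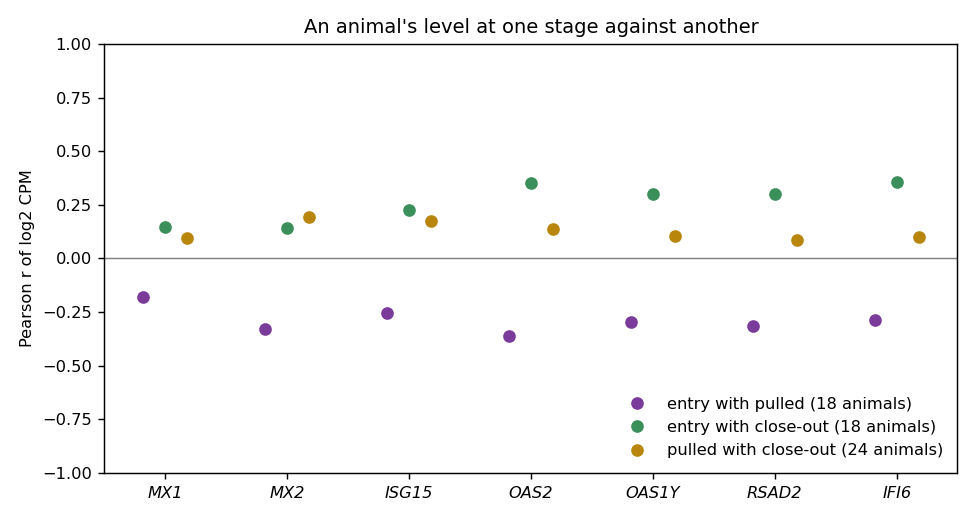
Pearson's r of log2 CPM across animals (y axis) between each pair of stages, for each gene (x axis); colours give the pair of stages and the number of animals. Values for entry with pulled lie between -0.36 and -0.18, and those for the pairs with close-out between 0.09 and 0.36.

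Within a stage, animals that were high in 1 of the genes were high in the others. Over the 21 pairs of genes, Pearson's r of log2 CPM had a median of 0.87 at entry (18 animals, from 0.72 to 0.95), 0.87 at pulled (24 animals, from 0.52 to 0.95) and 0.66 at close-out (24 animals, from 0.48 to 0.91). All 63 correlations passed an adjusted permutation p of 0.05 for r, the highest being 0.0225, while for Spearman's rho 21 pairs passed at the entry stage, 21 at pulled and 18 at close-out. Libraries share their blood sample and their scaling in these correlations. How often pairs of other genes pass the same test was not computed, so the number is not read as particular to these genes. MX2 and RSAD2 stayed closely tied in every stage, with r of 0.943 at the entry stage, 0.934 at pulled and 0.904 at close-out. Their rho was 0.936, 0.937 and 0.857 in the same order (adjusted permutation p = 1.91e-05 for each r and 4.20e-05 for each rho). The unadjusted permutation p was in each case the smallest that 100000 resamples can give, 1e-05. Other pairs shared it, so these p values do not rank the pairs. ISG15 and IFI6 had r of 0.951 at the entry stage, 0.945 at pulled and 0.911 at close-out, with rho of 0.872, 0.940 and 0.837. The pairs of MX2 or RSAD2 with the other 5 genes had lower medians, 0.83 at the entry stage, 0.73 at pulled and 0.59 at close-out, than the pairs among those 5, with 0.90, 0.89 and 0.74, and this difference was not tested. At pulled it was smaller without animals 9 and 12, with medians of 0.82 for the pairs of MX2 or RSAD2 with the other 5 genes and 0.90 for the pairs among those 5.

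Correlations were repeated without the 2 animals farthest from the median of the first gene of a pair. The order of genes was MX1, MX2, ISG15, OAS2, OAS1Y, RSAD2 and IFI6, and extremes of the second gene stayed in. With those animals left out, 20 of 21 correlations at the entry stage, 20 at pulled and 13 at close-out had a permutation p under 0.05. At close-out animals 16 and 20 were the pair left out in most of the correlations. RSAD2 with IFI6 at close-out had r of 0.483 with all animals (rho 0.118) and -0.147 without animals 16 and 20, so this relation rested on those animals. MX2 with IFI6 behaved alike, with r of 0.487 (rho 0.274) at close-out and 0.063 without animals 16 and 20. At pulled the r of MX2 with IFI6 was 0.515, and 0.309 without animals 17 and 19. This low value moved with the libraries treated as going against their labels. Without animals 9 and 12 it was 0.670, and 0.506 with animals 17 and 19 left out as well (permutation p = 0.0231). All 21 pairs at pulled then had a permutation p under 0.05 with the 2 farthest animals left out, and r over the 21 pairs ran from 0.67 to 0.96 with a median of 0.89.

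**Figure D5:**
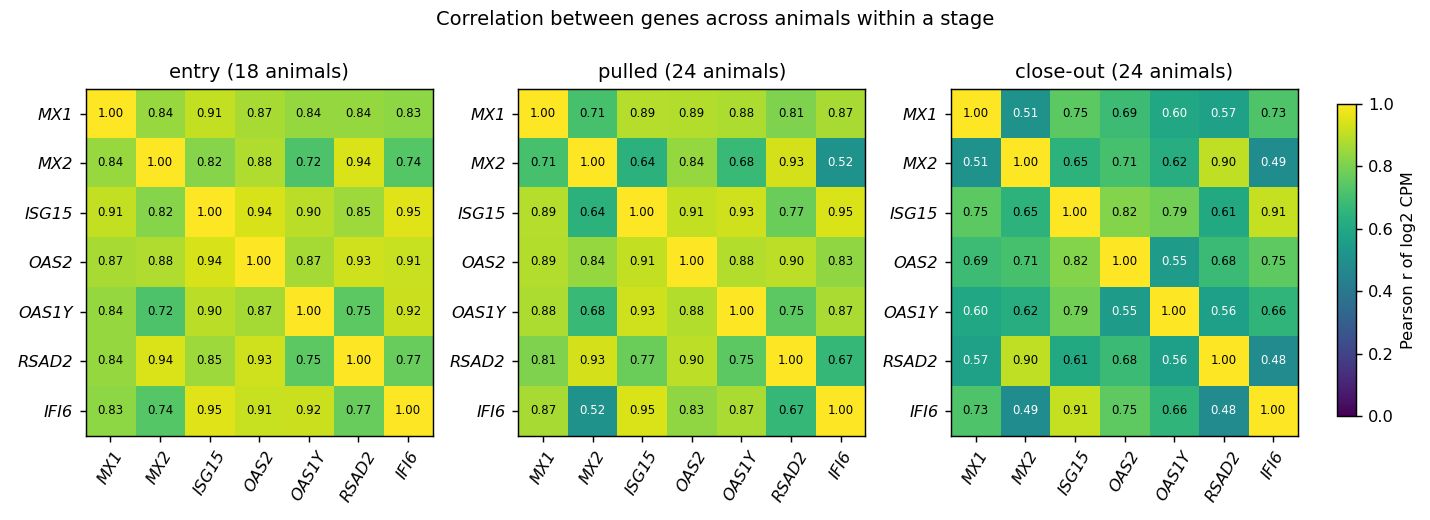
Pearson's r of log2 CPM between genes across the animals of a stage, with genes on both axes and the value in each cell on a colour scale from 0 to 1. At close-out the pair of MX2 and RSAD2 (0.90) and the pair of ISG15 and IFI6 (0.91) keep the highest values, while RSAD2 with IFI6 has 0.48.

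Over all 72 libraries, each gene was also set against the mean of the other 6 (z-scored log2 CPM), as a description in which stage differences are included. Pearson's r was 0.975 for OAS2, 0.959 for ISG15, 0.938 for MX1, 0.938 for OAS1Y, 0.913 for IFI6, 0.881 for RSAD2 and 0.856 for MX2. Among the 12648 other genes tested, 57 had r of at least 0.8 with the mean of all 7. The highest were ENSBTAG00000045588 with r of 0.974 and ENSBTAG00000030921 with r of 0.973, for which the sources used here give no symbol. ENSBTAG00000045588 had a median of 189 CPM at entry, 308 CPM at pulled and 26 CPM at close-out, and ENSBTAG00000030921 had 19.4 CPM at entry, 25 CPM at pulled and 2.15 CPM at close-out, so both were lowest at close-out by their medians.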

How the data were processed

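The authors deposited 1 table of read counts, with a row per Ensembl gene, a column for each of the 72 libraries and no normalization; 0 columns lacked a sample. The submitters' processing notes name the genome build UMD3.1, TopHat2 and HTSeq. Versions, annotation and strand setting are not given in the sources used. Per the labels' protocols, RNA came from PAXgene tubes and libraries were made from poly-A RNA with a TruSeq kit.

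The 7 genes, the gene lists, the title-number sets and the tests were chosen with earlier results of these data known. All 7 genes are named; like genes were ranked by Pearson's r over 72 libraries and at most 2 identifiers are printed. Of the 24616 identifiers, 0 matched the RefSeq table at hand (ARS-UCD2.0), so the planned pathway list, cell type markers and promoter motifs were not analysed here, and no sequences are shown.

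In R 4.3.3, edgeR 4.0.16 (quasi-likelihood, TMM scaling, its low-count filter by stage, 12655 genes) was fitted to all 72 libraries with the animal as a block. Same-numbered libraries come from the same animal, per the labels. P values were adjusted by Benjamini-Hochberg over all genes at 0.05, SE was taken as the size of the log2 fold change over the root of F, and log2 CPM used a prior count of 2. Differences between sets were tested as an interaction of stage and set. Spread and correlations were tested with permutations of 100000 resamples (Python 3.11.15, SciPy 1.17.1, NumPy 2.4.6) and adjusted over 21, 21 and 63 tests. Figures were drawn with matplotlib 3.10.9. Total counts of 8.24 to 29.1 megareads per library set the precision of low genes. PCR copies could not be removed here, since the counts carry no molecular identifiers. Library identity was checked over the 100 genes whose levels repeated best between entry and close-out (correlation of at least 0.881, chosen without animals 9 and 12), as deviations from the mean of the title-number set, and library pairs by a chi-square over genes whose mean count reached 100. The scripts were tested on simulated data.

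Alternatives were DESeq2 1.42.0, voom in limma 3.58.1, a fit with no block, scaling by RLE or by library totals only, tests of genes with at least 1 CPM in 24 libraries or with no low-count filter, a fit of the 2 stages compared, a test against 1.5-fold, no libraries labelled pulled of animals 9 and 12, fits within each set, and leaving out each animal. The spread test within the set of 18 animals was chosen after seeing the data.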

Additional observations from a re-analysis of the deposited data

Results flagged for a closer look

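MX2 differed between the title-number sets in a test of the difference itself: the log2 fold change in the set of 6 animals minus that in the set of 18 animals was 3.52 for pulled against entry and 2.83 for close-out against entry. RSAD2 differed likewise, by 3.44 for pulled against entry and by 3.02 for close-out against entry. In limma-voom the RSAD2 difference for close-out against entry was 2.28 and did not pass (adjusted p = 0.0795). The entry libraries enter both comparisons. They had stood apart by set in earlier results of these data, so the tests are no independent evidence for the division. In the same tests 36.0% of all genes were higher in the set of 6 for pulled against entry and 34.9% for close-out against entry, so 2 of 7 genes is no more than the background, and nothing particular to MX2 and RSAD2 is read from it.

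In the set of 6 animals at close-out, MX1 in animal 2 stood apart from the others, with a log2 CPM of 7.56 and the nearest animal at 8.61. Its gap was 0.711 of the range of the set, above Dixon's critical value for 6 samples. This was 1 of 21 groups tested, and chance flags about 1 in 20.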

How the results depend on the processing

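Over the alternatives, 359 values kept their direction and their side of the threshold, 14 lost it, 3 gained it and 2 changed direction; with an animal left out 627 kept both, 1 lost its call and 2 gained one. The fit with no replicate block called 5, 7 and 7 genes in pulled against entry, close-out against pulled and close-out against entry, as did the fit with the block, DESeq2 and limma-voom. Of all 12655 genes, 2119 were higher, 1584 lower and 1460 lower in the same order with no block. These numbers were 2552, 1765 and 1517 with the block, 2707, 1967 and 2174 in DESeq2, and 2707, 1694 and 1226 in limma-voom. The test against a 1.5-fold change called 0 of the 7 genes in pulled against entry, where 52 of 12655 genes were higher. Limma-voom called 1 of the 7 genes in the difference between the sets for close-out against entry, where 4410 of 12655 genes were higher in the set of 6. RSAD2 was at 2.28 in that test (adjusted p = 0.0795). Within the set of 6 animals, pulled against entry turned to 2.62 for MX2 and 2.42 for RSAD2. OAS2 in pulled against entry lost its call with library totals only (0.68), with only the 2 stages (0.81), within the set of 18 animals (0.49) and without animal 12 (0.70), where the edgeR adjusted p was 0.0665, 0.0765, 0.201 and 0.0518. The OAS2 difference between the sets passed with library totals only (1.97), in limma-voom (1.49), without animal 5 (1.71), without animal 7 (1.58) and with the pulled libraries of animals 9 and 12 left out (1.5). With library totals only, the median over all genes (log2) moved to -0.19 for pulled against entry, 0.13 for close-out against pulled and 0.65 for the difference between the sets. The cause of these changes was not tested. Depth limits RSAD2 most, with 17 reads in its lowest library.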
